A study of Mus musculus with 4 samples.

Results

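The 34 genes described here encode the RAS to ERK signalling cascade, its feedback inhibitors and the early response transcription factors that act downstream of it. They were chosen by gene symbol, and all 34 were among the 17187 genes of the deposited table. Their transcripts were compared by RNA sequencing in group 2 innate lymphoid cells (ILC2s) sorted from BALB/c mouse lung and kept in culture for 18 hours. Of the 4 libraries, 2 came from cells given an antibody against CD226, a costimulatory receptor of lymphocytes, at 5 µg/mL, and 2 came from cells given an isotype control antibody, whose dose the labels leave unclear. Both groups shared the sort, the culture and the strain. The labels name no stimulus added to the culture. Nor do they say if the replicates are separate mice or cultures, so p-values measure a spread that may be technical. The title of the series ties CD226 blockade to ILC2 effector function and airway hyperreactivity, and the comparison asks which of these transcripts differed under the antibody.

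In this cascade, SOS proteins load RAS with GTP, RAS recruits RAF kinases, RAF activates the MEK kinases and MEK activates ERK. ERK and related kinases act on ternary complex factors and serum response factor at CArG boxes, and kinases downstream of ERK act on CREB family factors at cyclic AMP response elements, which switches on FOS, JUN, EGR and NR4A genes without new protein synthesis. Many of the induced genes then restrain the pathway, among them the DUSP phosphatases and the Sprouty and SPRED proteins. In ILC2s, alarmin and costimulatory receptors are known to feed into this pathway and into cytokine transcription.

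Promoters were read for 27 of the 34 members from RefSeq on GRCm38.p6, a reference from the C57BL/6J strain, over the 250 bases before each annotated start. Egr1, Egr3, Fosl1, Myc, Mapk3, Dusp4 and Ier2 were not among these, so their promoters were not searched. The CArG box was found in 3 of these 27 members, Egr2, Dusp5 and Zfp36 (11.1%), and in 1.62% of the 27025 genes with a promoter in the same source. That of Zfp36 begins 58 bases before the start. All 100 bases from 150 to 51 before that start lie in exons of Zfp36 in GENCODE. The cyclic AMP response element TGACGTCA was also found in 3 members, Braf, Dusp1 and Maff (11.1%), and in 1.77% of all genes. The AP-1 site TGANTCA was found in 0 of 27 members and 7.82% of all genes, and the ETS site CCGGAAGT in 0 of 27 and 3.23%. Both strands were read, the motifs do not overlap each other, and a gene with several starts was counted once. The following windows, from 150 to 51 bases before an annotated start, belong to members whose anti-CD226 and isotype libraries did not overlap, and show the motifs in capitals. That of Egr2 lies at chr10:67537719-67537818 on the plus strand, that of Dusp5 at chr19:53528995-53529094 on the plus strand, that of Dusp1 at chr17:26508523-26508622 on the minus strand and that of Braf at chr6:39725514-39725613 on the minus strand.
Egr2, CArG box: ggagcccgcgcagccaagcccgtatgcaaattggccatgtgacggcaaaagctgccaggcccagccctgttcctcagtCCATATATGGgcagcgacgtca
Dusp5, 2 adjoining CArG boxes: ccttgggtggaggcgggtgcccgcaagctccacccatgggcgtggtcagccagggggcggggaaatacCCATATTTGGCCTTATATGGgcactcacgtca
Dusp1, cyclic AMP response element: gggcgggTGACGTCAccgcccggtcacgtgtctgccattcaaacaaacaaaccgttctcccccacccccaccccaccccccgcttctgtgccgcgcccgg
Braf, 2 cyclic AMP response elements: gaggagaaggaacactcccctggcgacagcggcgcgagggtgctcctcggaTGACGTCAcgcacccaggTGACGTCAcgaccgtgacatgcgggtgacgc

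The deposited values are normalised read counts. The estimated depth was between 12433729 and 17847329 reads a library, and the value of 3 reads, the floor for a gene listed at 0, was between 2.32 and 3.32. All 13 ILC2 marker genes were detected in each library. Of these, 4 were higher in both anti-CD226 libraries, 2 were lower in both and 7 overlapped. Gata3, among the higher, was at 14911 and 17310.2 under anti-CD226 and at 14198 and 13811 under isotype. The lower were Il5 and Il13. Il5 was at 85431 and 67864 under anti-CD226 and at 95010 and 97655 under isotype. Il13 was at 2725 and 921 under anti-CD226 and at 2773 and 3419 under isotype. Of 20 macrophage markers, 12 were in the table, and their summed level was 636 and 2044 in the anti-CD226 libraries and 328 and 297 in the isotype libraries. By gene, 6 of the 12 were higher in both anti-CD226 libraries and 6 overlapped. Mmp12 and Chil3 carried most of the sum in anti-CD226 replicate 2: Mmp12 was at 168 and 678 under anti-CD226 and at 34.3 and 2.32 under isotype, and Chil3 at 16.5 and 784 under anti-CD226 and at 19.9 and 0 under isotype. Lyz2, Cd68, Itgam, Mpeg1 and Lpl were, like Mmp12, higher in both anti-CD226 libraries. Itgam was at 19.6 and 18.7 under anti-CD226 and at 1.11 and 0 under isotype. Chil3, Ctss, Csf1r, Apoe, Adgre1 and Cd14 overlapped, with Csf1r at or below 2.62 in all 4 libraries. Of the 7 T cell markers in the table, 1 was higher in both anti-CD226 libraries, 3 were lower in both and 3 overlapped. Their summed level was 3440 and 2299 under anti-CD226 and 3223 and 3739 under isotype. Of 8 mast cell and basophil markers, 1 was higher, 3 were lower and 4 overlapped. All 7 epithelial markers overlapped. Sftpc, Sftpa1, Scgb1a1 and Krt8 were above 0 only in isotype replicate 2, between 10.04 and 22.4. Several members are also transcribed by macrophages, and the part of all these cell types in the values below was not tested. The libraries also differed in how a gene's level followed transcript length: among the 1274 genes tested with the longest transcripts, the median log2 deviation from the mean of the 4 libraries was -0.10 and 0.32 in anti-CD226 replicates 1 and 2, and 0.0057 and -0.20 in isotype replicates 1 and 2. Fold changes are therefore also given with each library's length trend removed where that matters.

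No member passed the test across all genes, and most had overlapping groups. Of the 34 members, 33 had a mean of at least 10 over the 4 libraries and were tested, 17 of them higher and 16 lower in the anti-CD226 libraries. The median of their log2 fold changes was 0.06, against 0.0066 over all 13010 genes tested. In limma's test 0 members passed an adjusted p of 0.05, where the background over all genes was 0% (0 of 13010 genes). The members with an unadjusted p below 0.05 were Sos1, Spred1 and Fosl1, all higher under anti-CD226, which is 3 of 33 against a background of 1.55% higher and 2.37% in either direction. The 2 anti-CD226 values lay both above or both below the 2 isotype values in 14 members, 10 higher and 4 lower. Over all genes tested such a separation was found in 26.8%, 13.8% higher and 13.0% lower. Among the 14 members, Egr2 reached the mean of 10 only through the anti-CD226 libraries, and Spry2 and Klf4 only through the isotype libraries. With the length trend removed 20 members were higher and 13 lower, and the number of separated members was 10 of 33 (30.3%), close to the 29.9% of all genes in that fit. In bulk libraries such as these, fewer cells with a transcript and less of it in each cell cannot be told apart.

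**Figure D1:**
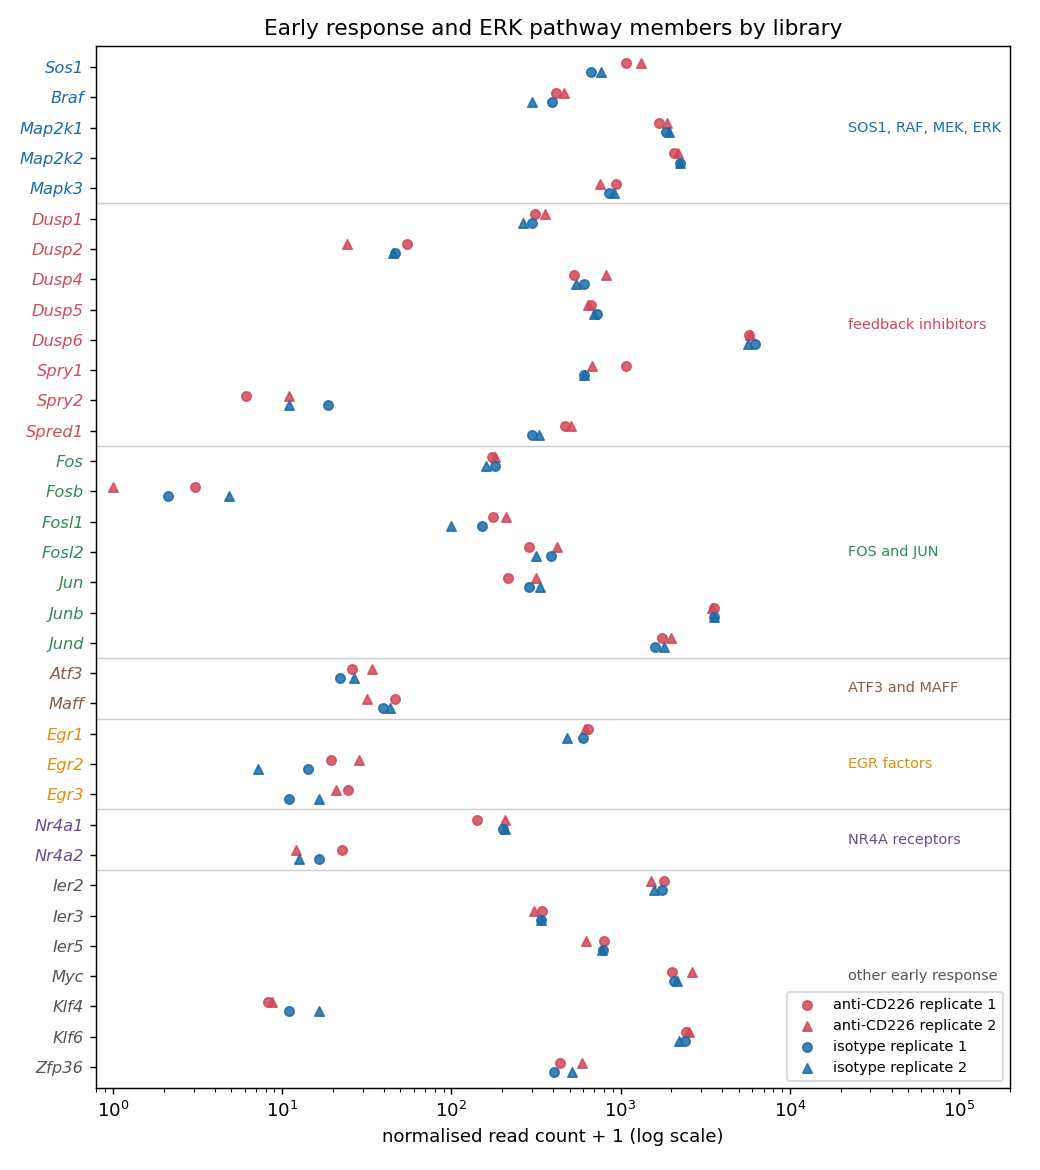
Normalised read counts plus 1 (log axis) of the 34 members, grouped by role, with a red point for each anti-CD226 library and a blue point for each isotype library. Levels run from Fosb, listed at 0 in anti-CD226 replicate 2, to Dusp6, the highest in each library, and red and blue points do not overlap in 14 of the 33 members tested.

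Among the cascade's own proteins, the RAS activator Sos1 stood apart most. Sos1, the guanine nucleotide exchange factor that loads RAS (chromosome 17 from 80393751 to 80480453, minus strand, GRCm38), had 1075 and 1321 in the anti-CD226 libraries and 671 and 768 in the isotype libraries. Both anti-CD226 values exceeded both isotype values. The group means were 1198 ± 174 and 719 ± 68.8 (SD, n = 2 each), a log2 fold change of 0.73 ± 0.19 (standard error; limma, unadjusted p = 0.0047, adjusted p = 0.982). Its transcript is 8436 bases long, and with the length trend removed the log2 fold change was 0.53. With single libraries left out the log2 fold change ranged from 0.58 without anti-CD226 replicate 2 to 0.88 without anti-CD226 replicate 1.

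Braf, a RAF kinase with a transcript of 9728 bases, had 416 and 463 in anti-CD226 libraries and 395 and 297 in isotype libraries. The groups did not overlap, but the log2 fold change of 0.36 (standard error 0.21) came to 0.13 with the length trend removed, and the groups then overlapped. It was 0.15 without isotype replicate 2 and 0.56 without isotype replicate 1. Braf also overlaps Ndufb2 on the other strand, whose reads cannot be told apart from its own where strand was not used. Map2k1, which encodes MEK1, had 1691 and 1884 under anti-CD226 and 1851 and 1943 under isotype. Its partner Map2k2, which encodes MEK2, had 2071 and 2181 under anti-CD226 and 2237 and 2239.9 under isotype. The Map2k2 groups were apart by a small margin (log2 fold change -0.07, standard error 0.16) and overlapped with the length trend removed, and the Map2k1 groups overlapped in both. Mapk3, which encodes ERK1, had 941 and 759 in anti-CD226 libraries and 856 and 915 in isotype libraries, with the isotype values inside the range of the others.

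The feedback inhibitors had no common direction. Spred1, a membrane protein that keeps RAF from being activated by RAS, had 466 and 511 in anti-CD226 libraries and 299 and 328 in isotype libraries. Its means were 489 ± 31.8 and 314 ± 19.9 (SD, n = 2 each), a log2 fold change of 0.64 ± 0.18 (standard error; limma, unadjusted p = 0.0084, adjusted p = 0.982). All replicates of Spred1 lay close to their group mean, and the groups were well separated. With the length trend removed its log2 fold change was 0.49. It was 0.57 without anti-CD226 replicate 2 and 0.71 without anti-CD226 replicate 1. The gene lies on chromosome 2 from 117121374 to 117182279 on the plus strand.

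Spry1, a Sprouty protein that inhibits signalling from receptors to ERK, had 1077 and 676 in anti-CD226 libraries and 610.4 and 605 in isotype libraries. The separation rested on anti-CD226 replicate 1, since replicate 2 lay just above the isotype values. The log2 fold change was 0.49 ± 0.24 (standard error; limma, unadjusted p = 0.075, adjusted p = 0.982). It was 0.15 without anti-CD226 replicate 1 and 0.83 without anti-CD226 replicate 2 (limma, adjusted p = 0.00437), a fit that called 63 genes, 0.485% of those tested. Spry2, of the same family, was barely transcribed, with 5.15 and 9.92 under anti-CD226 and 17.7 and 10.04 under isotype, or between 5 and 16 estimated reads. Its log2 fold change was -0.81 ± 0.66 (standard error), and it reached the mean of 10 needed for testing only through the isotype libraries. It ranged from -1.22 without anti-CD226 replicate 2 to -0.40 without anti-CD226 replicate 1, and the groups overlapped with the length trend removed.

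The dual specificity phosphatases lay on both sides of the isotype values. Dusp6, a cytosolic phosphatase that acts on ERK and is a transcriptional target of ERK, had the highest level of all 34 members, 5772 and 5812 in anti-CD226 libraries and 6193 and 5687 in isotype libraries. The anti-CD226 values lay between the isotype values. Dusp5, a nuclear phosphatase of ERK, had 668 and 645 under anti-CD226 and 729 and 698 under isotype, apart but close (log2 fold change -0.12, standard error 0.17). Dusp1, a nuclear phosphatase of several MAP kinases, had 312 and 358 under anti-CD226 and 298 and 263 under isotype. Its groups were also apart, with a log2 fold change of 0.25 ± 0.19 (standard error), and in GENCODE its span overlaps Ergic1 on the other strand. Dusp4 had 532 and 816 under anti-CD226 and 608 and 542 under isotype, and Dusp2 had 53.5 and 23.1 under anti-CD226 and 45.3 and 44.04 under isotype. In both of these nuclear phosphatases the anti-CD226 libraries lay on either side of the isotype libraries.

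**Figure D2:**
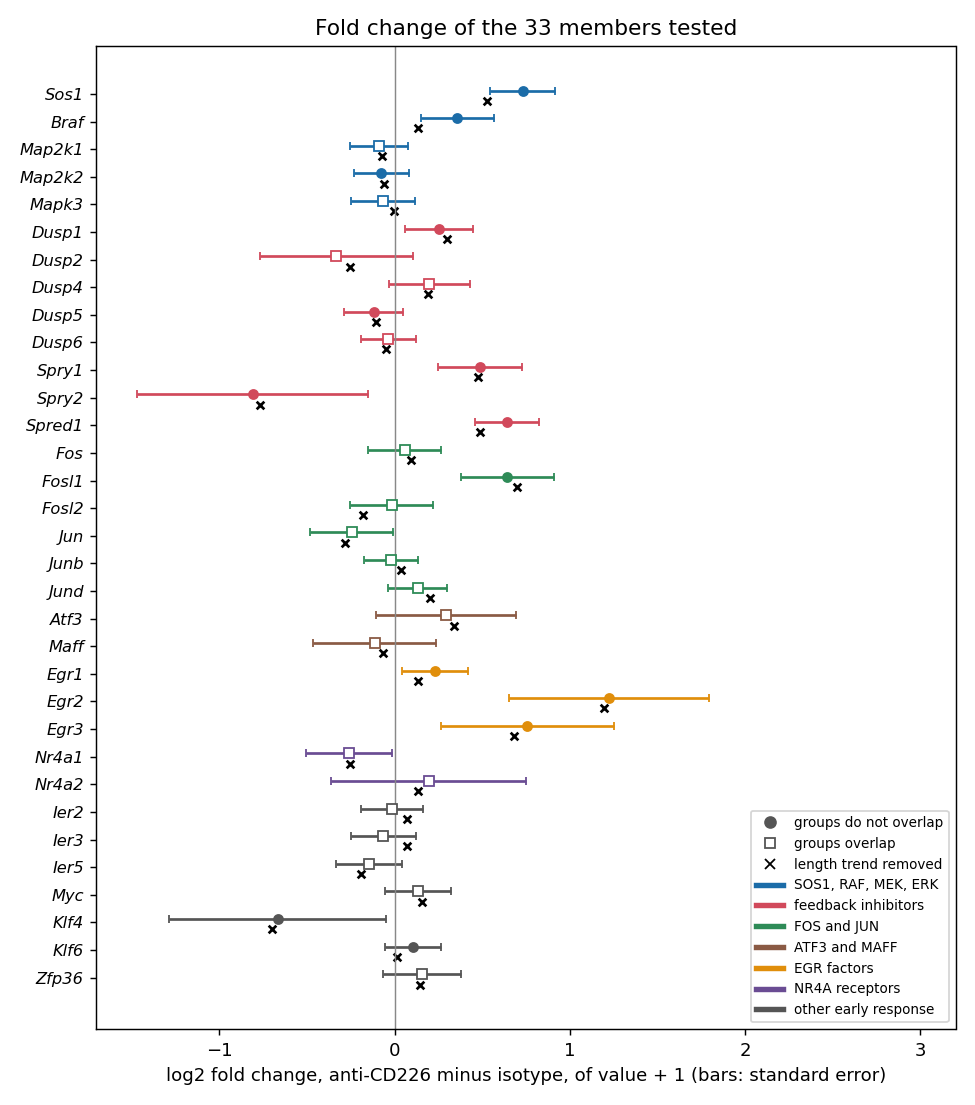
Log2 fold change of value plus 1, anti-CD226 minus isotype, with its standard error, for the 33 members tested. Filled circles mark the 14 members whose groups did not overlap, open squares the others, and crosses the value with the length trend removed. Sos1 and Braf lose the most with the length trend removed, at 0.53 and 0.13, while Fosl1 stands at 0.70 and Egr2 at 1.20.

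AP-1 is a dimer of a FOS and a JUN protein or of JUN proteins, and of its FOS and JUN genes tested only Fosl1 separated the groups as deposited. Fosl1, which encodes FRA-1, had 175 and 211 in anti-CD226 libraries and 152 and 98.97 in isotype libraries. Both anti-CD226 values were above both isotype values, and the isotype libraries differed by more than the anti-CD226 libraries. The means were 193 ± 25.1 and 125 ± 37.2 (SD, n = 2 each), a log2 fold change of 0.64 ± 0.27 (standard error; limma, unadjusted p = 0.043, adjusted p = 0.982). With the length trend removed it was 0.70. It ranged from 0.34 without isotype replicate 2 to 0.95 without isotype replicate 1, and without anti-CD226 replicate 1 it was 0.78. Fosl1 lies on chromosome 19 from 5447547 to 5455946 on the plus strand and overlaps Ccdc85b on the other strand, which had 342 and 239 under anti-CD226 and 274 and 301 under isotype.

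The JUN genes carried most of the FOS and JUN transcripts, also per kilobase of transcript. Junb, a JUN protein that partners FOS and BATF proteins in lymphocytes, had 3581 and 3474 in anti-CD226 libraries and 3585 and 3571 in isotype libraries. Its highest value was 1.03 times its lowest, a range narrower than in 99.7% of the 1562 genes tested whose mean was within 2-fold of its own. In GENCODE the span of Junb overlaps Prdx2 on the other strand, which had 2179 and 1354 under anti-CD226 and 1968 and 2246 under isotype. Jund, the JUN protein that resting cells also express, had 1754 and 1990.5 under anti-CD226 and 1607 and 1810.3 under isotype, with overlapping groups. Jun itself had 215 and 316 under anti-CD226 and 288 and 331 under isotype, again overlapping.

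Fos, the prototype of the immediate early genes, had 174 and 179.65 in anti-CD226 libraries and 181 and 159 in isotype libraries, with all 4 values within 1.14-fold of each other. Fosl2, which encodes FRA-2, had 287 and 419.9 under anti-CD226 and 389 and 318 under isotype. Its groups overlapped, but with the length trend removed it was lower in both anti-CD226 libraries (log2 fold change -0.18). Fosb, the fourth FOS gene, was the only member with a mean under 10 and was not tested. It had 2.06 and 0 under anti-CD226 and 1.11 and 3.86 under isotype, which is at most 5 estimated reads, and the value of 0 allows up to 3.31. The related leucine zipper factors were low: Atf3, a stress-induced partner of JUN, had 24.7 and 33.06 under anti-CD226 and 21 and 25.5 under isotype, and Maff, a small MAF protein, had 45.3 and 30.9 under anti-CD226 and 38.7 and 42.5 under isotype. Neither separated the groups.

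All 3 EGR genes, zinc finger factors induced through ERK, were higher in both anti-CD226 libraries than in both isotype libraries, a separation found in 13.8% of all genes, and none of them passed the test. For Egr1 it was lost with the length trend removed, and for Egr3 it rested on between 9 and 23 estimated reads a library. Egr2 reached the mean of 10 needed for testing only through the anti-CD226 libraries. Egr1, the most abundant, had 638 and 619 under anti-CD226 and 596 and 481 under isotype. Its log2 fold change was 0.23 ± 0.19 (standard error), or 0.13 once the length trend is removed. It was 0.08 without isotype replicate 2 and 0.38 without isotype replicate 1. Egr2, which in T cells is induced by antigen receptor signals and restrains activation, had 18.5 and 27.6 under anti-CD226 and 13.3 and 6.18 under isotype. These values stand for 18 and 25 estimated reads under anti-CD226 and 12 and 8 under isotype.

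For Egr2 (chromosome 10 from 67535475 to 67542188, plus strand), whose promoter window with a CArG box is printed above, the log2 fold change was 1.22 ± 0.57 (standard error; limma, unadjusted p = 0.066, adjusted p = 0.982). It was 0.73 without isotype replicate 2 and 1.72 without isotype replicate 1. Egr3 had 23.7 and 19.8 under anti-CD226 and 9.95 and 15.5 under isotype, a log2 fold change of 0.76 ± 0.49 (standard error) that was 0.46 without isotype replicate 1. In reads this is 23 and 18 under anti-CD226 and 9 and 20 under isotype. Before scaling the groups overlap, as those of Egr1, Dusp1 and Klf6, among other members, also do. Isotype replicate 2 is the deepest library, so an overlap of unscaled reads does not show an overlap in level.

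The NR4A genes, orphan nuclear receptors induced by calcium and ERK signals, did not separate the groups. Nr4a1 had 140.02 and 207 in anti-CD226 libraries and 201 and 207 in isotype libraries. Nr4a2 had 21.6 and 11.02 under anti-CD226 and 15.5 and 11.6 under isotype.

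**Figure D3:**
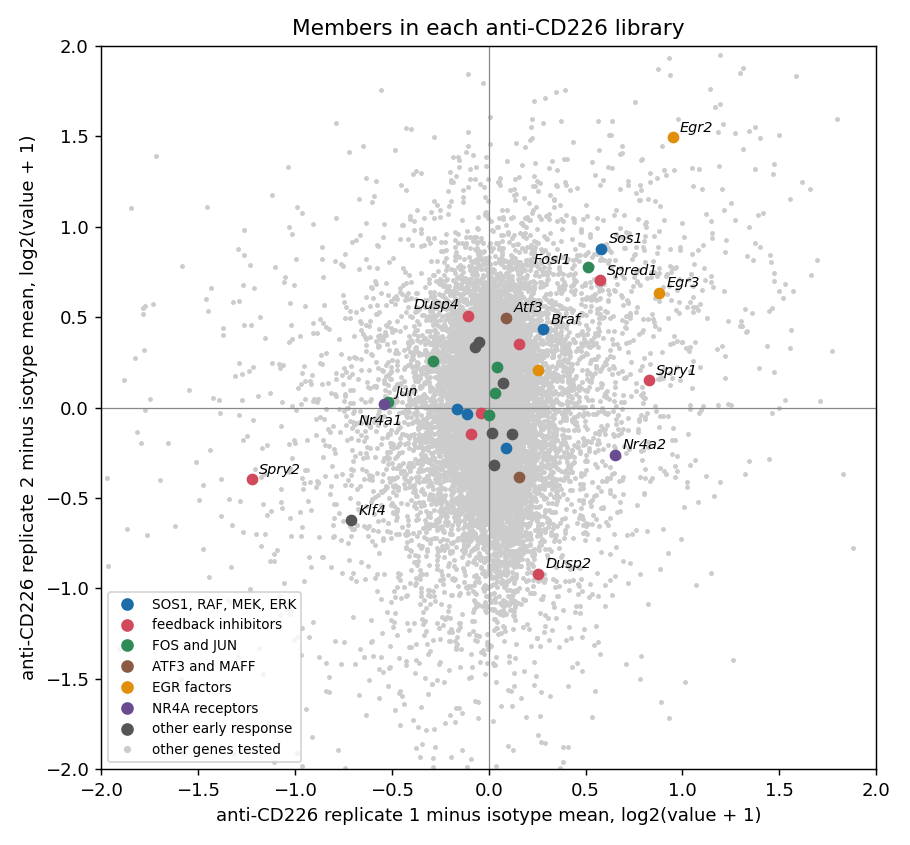
Log2(value + 1) of each member minus the isotype mean in anti-CD226 replicate 1 (horizontal) and replicate 2 (vertical), over grey points for the other genes tested. Both axes share the isotype mean, and genes beyond 2 in either direction are not drawn. Egr2, Egr3, Sos1, Spred1 and Fosl1 lie at the upper right and Spry2 and Klf4 at the lower left, while Dusp2 and Nr4a2 differ in sign between the replicates.

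Of the other abundant early response genes, Klf6 separated the groups by a small margin and Myc and Zfp36 did not separate them. Myc, the growth regulator, had 2003 and 2657 in anti-CD226 libraries and 2066 and 2141 in isotype libraries, so the anti-CD226 libraries enclosed the others. Klf6, a zinc finger factor, had 2429.8 and 2532 under anti-CD226 and 2397 and 2219.8 under isotype, apart with a log2 fold change of 0.10 ± 0.16 (standard error), and the groups overlapped with the length trend removed. Zfp36, which encodes tristetraprolin and promotes the decay of cytokine mRNAs, had 441 and 587 under anti-CD226 and 403 and 515 under isotype.

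None of the IER genes separated the groups. Ier2 had 1808 and 1504 in anti-CD226 libraries and 1758 and 1574 in isotype libraries. Ier3 had 342 and 306 under anti-CD226 and 337 and 339 under isotype, and Ier5 had 796 and 628 under anti-CD226 and 790.1 and 774 under isotype. In each of the 3 the isotype values lay within the range of the anti-CD226 values. Klf4, a factor of epithelial and myeloid cells among others, had 7.21 and 7.72 under anti-CD226 and 9.95 and 15.5 under isotype. It was tested only because of its isotype values (log2 fold change -0.67, standard error 0.62). The value of 15.5 was that of isotype replicate 2, the only library with Sftpc, Sftpa1, Scgb1a1 and Krt8 above 0. The part of epithelial cells in this value was not tested.

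Levels differed far more between members than between groups. Per kilobase of the longest annotated transcript, and averaged over the 4 libraries, Dusp6 stood at 2098 normalised reads and Junb at 1964, above 95.8% and 95.5% of the genes tested. Ier2, Jund, Myc and Map2k2 followed at 1091, 1073, 948 and 907 per kilobase. Egr1 and Fos, both classical immediate early genes, were in the middle of the transcriptome, at 130.2 and 82.3 per kilobase, above 51.8% and 41.3% of genes. Egr2, Spry2, Egr3, Nr4a2 and Klf4 stood between 3.33 and 5.53 per kilobase, among the lowest 4.7% of the genes tested. Together the 34 members made up 0.216% and 0.227% of the signal in the anti-CD226 libraries and 0.216% and 0.210% in the isotype libraries.

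**Figure D4:**
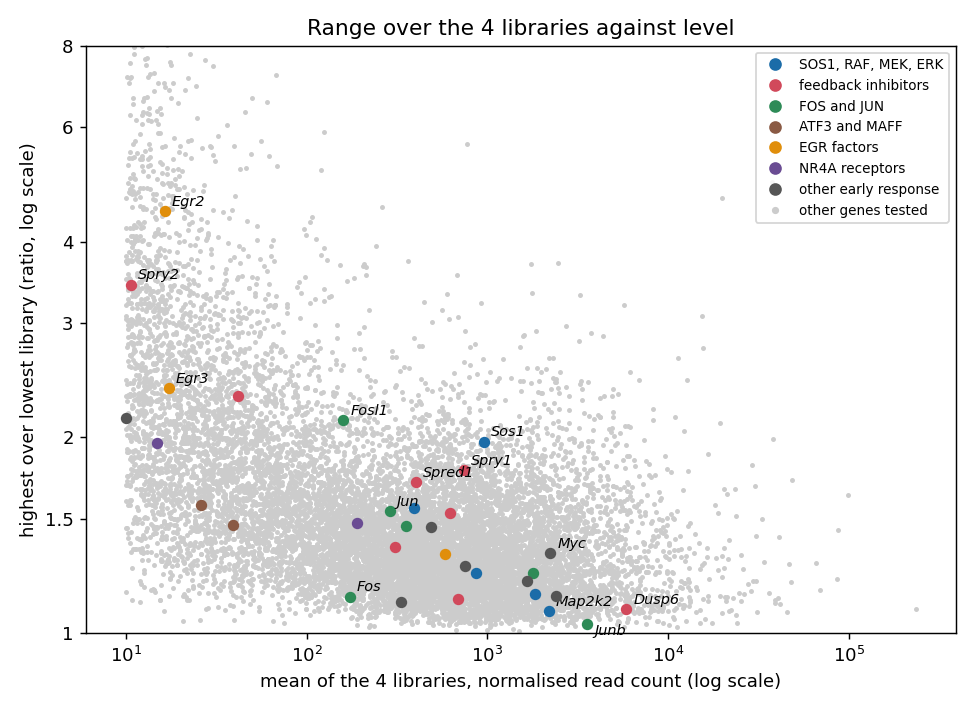
Ratio of the highest to the lowest of the 4 libraries (log axis) against the mean normalised read count (log axis) for each member tested, over grey points for the other genes tested. Genes with a value of 0 or a ratio above 8 are not drawn. Junb lies at 1.03 near the lower edge, whereas Sos1 at 1.97 and Fosl1 at 2.13 are near the upper edge for their level, and the widest member, Egr2 at 4.46, has a mean under 20.

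The anti-CD226 libraries differed from each other by more than the isotype libraries did in 23 of the 33 members tested, a share (69.7%) near the 68.3% of all genes tested. The median ratio of the higher to the lower replicate over the members was 1.20 under anti-CD226 and 1.12 under isotype. Both anti-CD226 libraries deviated from the isotype mean in the same direction in 19 of 33 members (57.6%), against 50.1% of all genes.

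Other genes of the pathway, from lists that hold no member, also gave no call. Of 112 such genes tested, 63 were higher and 49 lower, and the median of their log2 fold changes was 0.02. With the length trend removed, 55 were higher and 57 lower, and the median was -0.0048. None passed limma's adjusted test, and 7 had an unadjusted p below 0.05 (6 higher, 1 lower), which is 7 of 112 against 2.37% of all genes. In the cascade, Sos2, the paralogue of Sos1, had 493 and 465 in anti-CD226 libraries and 301 and 345 in isotype libraries (log2 fold change 0.57, standard error 0.18). Both SOS genes were thus above the isotype range in both anti-CD226 libraries, as were 13.8% of all genes tested. With the length trend removed the log2 fold change of Sos2 was 0.43. Of the 33 other cascade genes tested, Sos2 among them, 8 separated the groups (24.2%), 3 higher and 5 lower, against 26.8% of all genes. Rasgrp4, a RAS exchange factor known from mast cells, had 186 and 154 under anti-CD226 and 108 and 118 under isotype, and Rps6ka3, the ERK effector kinase RSK2, had 496 and 363 under anti-CD226 and 533 and 590.3 under isotype.

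Of the 20 other inhibitors tested, 9 were higher and 11 lower (8 and 12 with the length trend removed). Errfi1, a feedback inhibitor of EGF receptor kinases, had 112 and 107 in anti-CD226 libraries and 64.1 and 67.2 in isotype libraries, with a log2 fold change of 0.73 ± 0.24 (standard error). The adaptor Sh2b3, a negative regulator of cytokine signalling, had 538 and 754 under anti-CD226 and 474 and 503 under isotype. Spred2, the close relative of Spred1, had a fold change of the opposite sign, with 168 and 144 under anti-CD226 and 175 and 233 under isotype (log2 fold change -0.37, standard error 0.23). It was -0.16 without isotype replicate 2 and -0.58 without isotype replicate 1. Whether the SPRED genes differ in their response was not tested.

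Of the 14 other leucine zipper genes tested, 11 were higher and 3 lower, a split of 8 and 6 with the length trend removed. Creb5 had 102 and 138 in anti-CD226 libraries and 70.7 and 75.7 in isotype libraries, and Atf7 had 399 and 663 under anti-CD226 and 406 and 357 under isotype. Batf, which pairs with JUN proteins in lymphocytes, had 1331 and 886 under anti-CD226 and 1346 and 1422 under isotype. Creb5 and Atf7 have transcripts of 7917 and 7147 bases and Batf of 955.

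Of the 45 other early response genes tested, 23 were higher and 22 lower. Zfp36l1, a relative of Zfp36 that also promotes mRNA decay, had 905 and 996 in anti-CD226 libraries and 629 and 624 in isotype libraries. Its log2 fold change was 0.60 ± 0.17 (standard error; limma, unadjusted p = 0.0080, adjusted p = 0.982), or 0.57 once the length trend is removed. Tnfaip3, an inhibitor of NF-kB, had 312 and 431 under anti-CD226 and 263 and 221 under isotype. Sik1, a kinase induced by cyclic AMP, had 46.3 and 13.2 under anti-CD226 and 57.5 and 68.8 under isotype, a log2 fold change of -1.30 ± 0.55 (standard error). It was -0.43 without anti-CD226 replicate 2 and -2.17 without anti-CD226 replicate 1.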

How the data were processed

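Build mm10 and the tools STAR 2.7.8, DESeq2 and Partek 10.0 are named in the submitters' processing notes. How reads were counted, with which annotation and whether by strand, is not given in the sources used here. The authors deposited a table of normalised signal for each gene and library, which its title calls normalised counts. The value of 1 read was taken as the commonest lowest value of a library. Of values up to 1000 steps, between 73.5% and 75.1% were whole multiples of it (tolerance 0.02), so a count model was not used, and depths and floors are estimates that cover counting error only. The column of treatments in the table names the controls PBS, and the sample labels were followed.

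Genes with a mean of 10 or more (13010) were tested with limma 3.58.1 in R 4.3.3 on log2(value + 1) with a variance trend, two-sided, Benjamini-Hochberg adjusted over all genes. This understates changes of low genes. An exact permutation test of 2 against 2 libraries cannot go below 0.333. Members, lists and alternatives were chosen with earlier results of these data known. Fold changes are given for members whose groups do not overlap, and of each further list the 3 genes of smallest p are named. The 4 promoter windows were picked with motif matches and values known. Positions and longest transcript lengths come from GENCODE M21 (GRCm38), with a length for 97.5% of genes.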

Additional observations from a re-analysis of the deposited data

How the results depend on the processing

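With 2 libraries a group, 2 residual degrees of freedom remain, and members under about 20 reads (Egr2, Egr3, Spry2, Klf4, Nr4a2, Fosb) are limited by counting. Of 232 refits of the 14 separated members, 0 turned the direction and 5 passed the threshold: Sos1 with crossed replicate pairs and without anti-CD226 replicate 1, Spred1 and Fosl1 without that library, and Spry1 without anti-CD226 replicate 2. Of 203 refits of the 12 other pathway genes named, 0 turned the direction and 8 passed, all without anti-CD226 replicate 1. A lone library is assumed there to vary like the other group. That 0 refits turned the direction follows largely from the choice of separated genes, which all of the 12 but Atf7 also were. Groups that do not overlap keep their direction with any library left out, and the block and variance settings leave fold changes unchanged. The number of genes past an adjusted p of 0.05, 0 as reported, ranged from 13 to 1680 with each library left out, and that of members from 0 to 3. Members past an unadjusted p of 0.05 ranged from 1 to 7 (3 as reported). Separated members ranged from 17 to 29, a count that grows by construction with a lone library. The members' median ranged from -0.0085 to 0.087, and the other pathway genes past the threshold from 0 to 16. With the replicate block, 20 genes and 0 members passed. Same-numbered libraries deviated in opposite directions (r = -0.24 over 13010 genes). Whether the numbers pair the libraries cannot be told from this, since each library's length trend also enters these deviations. Crossed pairs, added after seeing the data, called 61 genes and 1 member, with 5 members past an unadjusted p of 0.05. The causes were not tested. The other pseudocounts, filters, scalings and variance priors, and removal of the length trend, gave 0 genes past an adjusted p of 0.05.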
